A study of Homo sapiens with 6 samples.

Results

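The genes described here are ATF4, DDIT3 (which encodes CHOP) and XBP1, the transcription factors at the centre of the cell's answer to misfolded protein and to a shortage of amino acids, together with TRIB3, ASNS, CHAC1, DDIT4, SESN2, HERPUD1 and PSAT1. They were picked by gene symbol, with earlier results of these data known, and all 10 were found among the 12180 genes listed. The transcript table listed 30 transcripts of these genes among 33090. RNA-seq was performed on TE-1 cells, a line derived from a human esophageal squamous cell carcinoma, with 3 NC and 3 FGL1-OE libraries. The FGL1-OE cells carried a lentiviral construct that overexpresses FGL1, a secreted fibrinogen-like protein, and the NC cells carried random nonsense sequences in place of it. The labels give the genotype of the controls as WT. By the study's methods both groups were lentivirally transduced cells of a single line, and stable lines were selected with puromycin. No source used here states radiation, a further stressor, separate cultures or whether puromycin was still present for the 6 libraries. The p-values therefore measure the spread between these libraries only. The comparison asks how the transcripts of this stress response stood in cells that overexpress FGL1.

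Stress in the endoplasmic reticulum is read by the sensors PERK, IRE1 and ATF6. PERK, like the amino acid sensor GCN2, phosphorylates the translation factor eIF2, which slows protein synthesis in general while the ATF4 protein is made more efficiently. ATF4 then switches on genes of amino acid synthesis and, with CHOP, genes that act in prolonged stress. IRE1 cuts a short piece out of the XBP1 transcript, and the shifted reading frame of the joined RNA encodes the active XBP1 factor. Much of ATF4 control therefore lies in translation, which RNA-seq does not measure, whereas the cut of XBP1 can be seen in RNA.

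The piece that IRE1 removes is shown first because the XBP1 transcripts differ by it. It lies within the coding sequence of XBP1 on the minus strand of chromosome 22, and the stretch printed spans chr22:28796098-28796171 on GRCh38. Capitals in the unspliced form mark 26 bases as placed by one annotated gap, at chr22:28796122-28796147. Capitals in the spliced form mark the 4 bases on each side of the join in that placement.
XBP1 unspliced: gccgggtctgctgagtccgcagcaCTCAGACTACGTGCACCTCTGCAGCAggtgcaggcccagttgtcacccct
XBP1 spliced: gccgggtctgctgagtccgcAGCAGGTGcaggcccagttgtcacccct
Of the 5 listed XBP1 transcripts, ENST00000344347 and ENST00000611155 held the spliced stretch and ENST00000405219, ENST00000216037 and ENST00000403532 held the unspliced one. The annotated gaps of the 2 spliced transcripts were offset by 2 bases and gave the same joined letters.

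Promoter windows, from 250 bases before to 50 after each start in RefSeq (GRCh38.p14), were searched on both strands for response elements bound by these factors. The C/EBP-ATF element, TGATGNAA, was found in 3.62% of 35116 windows, and in those of 3 of the 10 genes, namely ASNS, CHAC1 and HERPUD1. The endoplasmic reticulum stress element ERSE, which is CCAAT and CCACG with 9 bases between, was in 0.0769% of windows and its shorter form ERSE-II, ATTGG and CCACG with 1 base between, in 0.0541%. Among the 10 genes, XBP1 held the first and HERPUD1 the second. The sites are shown with 12 bases on each side, the match in capitals, and in HERPUD1 and CHAC1 the C/EBP-ATF match reads on the opposite strand.
ASNS C/EBP-ATF, positions -68 to -61 from the start, chr7:97872457-97872488, minus strand: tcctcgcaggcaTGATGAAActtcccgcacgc
CHAC1 C/EBP-ATF, positions -209 to -202 from the start, chr15:40953250-40953281, plus strand: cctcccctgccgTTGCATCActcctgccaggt
HERPUD1 C/EBP-ATF, positions -176 to -169 from the start, chr16:56931954-56931985, plus strand: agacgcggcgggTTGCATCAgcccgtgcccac
HERPUD1 ERSE-II, positions -117 to -107 from the start, chr16:56932013-56932047, plus strand: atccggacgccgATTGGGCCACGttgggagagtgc
XBP1 ERSE, positions -52 to -34 from the start, chr22:28800591-28800633, minus strand: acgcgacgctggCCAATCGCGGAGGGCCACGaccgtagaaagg
The palindromic CRE, TGACGTCA, and the UPRE, TGACGTGG, were in 1.85% and 0.729% of windows and in none of the 16 windows of the 10 genes. HERPUD1 thus held both kinds of element, and ATF4, DDIT3, TRIB3, DDIT4, SESN2 and PSAT1 held no match in these windows.

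FGL1 itself was at 0.0202, 0 and 0.106 FPKM in NC 1 to NC 3 and at 33.5, 39.3 and 39.9 FPKM in FGL1-OE 1 to 3. Its log2 fold change was 5.21 (SE 0.15, limma, adjusted p = 1.29e-05), and it was the sole gene of 12017 tested that passed an adjusted p of 0.05, which is 0.00832% of genes. With NC near 0 FPKM the size of this value is set by the pseudocount of 1, and it was 8.12 with a pseudocount of 0.1 and 6.49 from the sum of listed transcripts. Sequencing depth is not known, since the tables hold no read counts. The NC libraries were spread more widely than the FGL1-OE libraries, with a median SD over all genes of 0.308 against 0.121 on the log2(FPKM + 1) scale. NC 1 and NC 2 stood farthest apart, with a Pearson r across genes of 0.885, while the other pairs of libraries were at 0.935 or above. Among epithelial markers, KRT6A and CDH1 were higher in all FGL1-OE libraries, with unadjusted p = 0.0241 and 0.0263 in limma, and the summed FPKM of the 6 listed of 7 squamous epithelial markers was 274 to 313 in NC and 372 to 390 in FGL1-OE. The other markers of that list tested overlapped between groups, with log2 fold changes of 0.45 for KRT17, 0.075 for EPCAM and -0.064 for KRT5, and KRT6A, EPCAM and CDH1 made up most of the sum. KRT14 was not listed and TP63 averaged 0.519 FPKM in NC and 0.431 in FGL1-OE. The 3 listed of 5 fibroblast markers summed to 2.29 to 8.11 FPKM in NC and 3.24 to 8.27 in FGL1-OE, CD68 was the 1 listed of 5 leukocyte markers, at 2.25 to 5.73 and 3.20 to 5.40 FPKM, and none of 4 endothelial markers was listed. The part of the squamous marker difference in the stress genes was not tested, and in bulk RNA a change in the number of cells of a kind and a change in RNA per cell cannot be told apart.

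None of the 10 stress genes passed the test. At an unadjusted p of 0.05 the count was 0 of 10, beside 2.01% of all genes tested, and the adjusted p in limma was 1.00 for each. The groups did not overlap for 1 gene, HERPUD1, which was higher in FGL1-OE, beside 4.09% of all genes that were higher without overlap and 3.06% that were lower, where the stress genes counted 0. The median log2 fold change of the 10 genes was 0.056, beside 0.016 over all genes tested, and the median size of the change without its sign was 0.0957 beside 0.121.

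**Figure D1:**
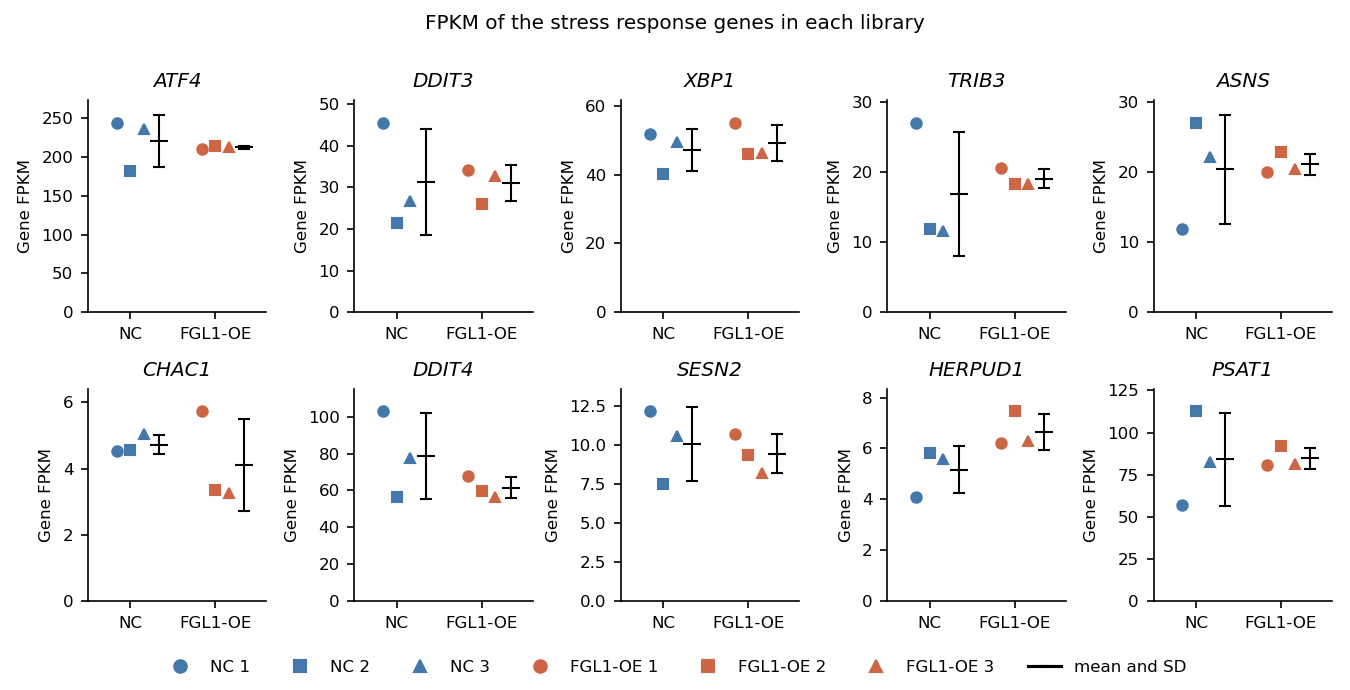
FPKM of each gene (vertical axes, from 0) in the 3 NC (blue) and 3 FGL1-OE (orange) libraries, with the marker shape giving the library number and black bars the mean and SD. Only the HERPUD1 groups do not overlap. For 9 of 10 genes the NC libraries are the more widely spread on the log2 scale, beside 84.1% of all genes tested.

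ATF4 (chr22:39915700-39918690, GRCh37) was the most abundant of the 10 genes and stood at percentile 99.2 of the levels of all genes tested. Its FPKM was 244, 182 and 235 in NC 1 to NC 3 and 211, 214 and 213 in FGL1-OE 1 to 3. The FGL1-OE libraries thus lay between the lowest and the highest NC library, and almost on one value, with an SD of 1.49 FPKM against 33.9 FPKM in NC. The log2 fold change was -0.042 (SE 0.16, 95% interval -0.42 to 0.34), so a change of up to 1.27-fold higher or to 0.746 of the NC level lay within the interval, on the FPKM + 1 scale. The 3 listed ATF4 transcripts were far less steady than the gene. ENST00000337304 was at 194, 132 and 184 FPKM in NC and at 144, 175 and 24.6 FPKM in FGL1-OE. ENST00000396680 was at 137, 106 and 153 FPKM in NC and at 76.3, 97.3 and 342 FPKM in FGL1-OE. The leading transcript of FGL1-OE 3 was thus not that of the other 5 libraries, while its gene FPKM was that of its group. ENST00000337304 and ENST00000396680 are listed at nearly the same span, chr22:39916569-39918688 and chr22:39916569-39918690. How reads were divided between them was not tested, and no change of isoform is read from these values. ENST00000404241 went from 68.3 FPKM in FGL1-OE 1 to 0.0438 in FGL1-OE 3.

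DDIT3 (chr12:57910371-57914300), whose product CHOP acts in prolonged stress and can promote cell death, was at 45.6, 21.3 and 26.7 FPKM in NC and at 34.1, 26.1 and 32.7 FPKM in FGL1-OE. NC 1 was the highest of all libraries and NC 2 the lowest, so the FGL1-OE libraries fell inside the NC range. The log2 fold change was 0.051 (SE 0.28, 95% interval -0.59 to 0.70). Of its 3 listed transcripts, ENST00000346473 carried most of the FPKM, at 34.8, 14.4 and 18.5 in NC and 28.5, 15.0 and 23.4 in FGL1-OE. The groups of the minor transcripts did not overlap, in opposite directions. ENST00000547303 was at 18.3, 2.66 and 2.76 FPKM in NC and at 1.99, 1.06 and 2.56 FPKM in FGL1-OE, with a log2 fold change at -1.20 (SE 0.69). ENST00000552740 was at 4.09, 2.92 and 3.75 FPKM in NC and at 5.43, 4.18 and 4.53 FPKM in FGL1-OE, with a log2 fold change at 0.32 (SE 0.24). Without NC 1 the log2 fold change of ENST00000547303 was -0.41. Over all stress gene transcripts, 28 were tested, and 0 had an adjusted or an unadjusted p under 0.05 in limma, beside 0.0165% and 3.53% of all transcripts. The groups did not overlap for 2 that were higher in FGL1-OE and 2 that were lower, beside 4.65% and 3.57% of all transcripts.

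XBP1 (chr22:29190543-29196585 on GRCh37), the target of IRE1, was at 51.7, 40.1 and 49.5 FPKM in NC and at 55.1, 46.0 and 46.2 FPKM in FGL1-OE as a gene. The groups overlapped, with a log2 fold change of 0.062 (SE 0.17, 95% interval -0.32 to 0.45). Its main spliced transcript, ENST00000344347, was at 38.9, 43.9 and 40.9 FPKM in NC and at 56.9, 54.6 and 56.8 FPKM in FGL1-OE. All FGL1-OE libraries lay above all NC libraries, with a log2 fold change of 0.44 (SE 0.21, 95% interval -0.075 to 0.95, unadjusted p = 0.0823, adjusted p = 1.00, limma). Its exact two-sided permutation p was 0.1, the smallest that 3 libraries against 3 can give. The lowest adjusted p over the 13 alternatives was 0.553. The main unspliced transcript, ENST00000405219, was at 34.6, 35.5 and 34.8 FPKM in NC and at 45.5, 33.8 and 33.3 FPKM in FGL1-OE, where FGL1-OE 1 stood above the other 5 libraries. The second spliced transcript, ENST00000611155, leaned the other way, at 19.4, 4.49 and 11.2 FPKM in NC and 9.09, 8.86 and 5.96 FPKM in FGL1-OE, with overlapping groups.

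Summed by form, the spliced XBP1 transcripts were at 58.3, 48.4 and 52.1 FPKM in NC and at 66.0, 63.4 and 62.7 FPKM in FGL1-OE. The means were 52.9 ± 5.02 and 64.1 ± 1.73 FPKM (SD, n = 3), a ratio of 1.21 with an exact permutation p of 0.1. The unspliced transcripts were at 44.4, 35.9 and 47.3 FPKM in NC and at 49.8, 35.2 and 36.2 FPKM in FGL1-OE, with overlapping groups and an exact permutation p of 0.9. The spliced share of the summed transcript FPKM was 56.8%, 57.4% and 52.4% in NC and 57.0%, 64.3% and 63.4% in FGL1-OE. FGL1-OE 1 lay among the NC libraries and the other two above them. The difference in share was 6.04 percentage points (55.5% ± 2.72 against 61.6% ± 3.99, SD, n = 3, exact permutation p = 0.2). These shares come from the deposited transcript values and not from reads that cross the join. The XBP1 gene FPKM was 0.466 to 0.503 of the sum of its listed transcripts in the same library. The median of this ratio over all genes with both values was 0.741. Of words of 31 bases, 24 were held by both spliced transcripts and by no unspliced one, and neither spliced transcript held a word that was in no other listed XBP1 transcript.

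**Figure D2:**
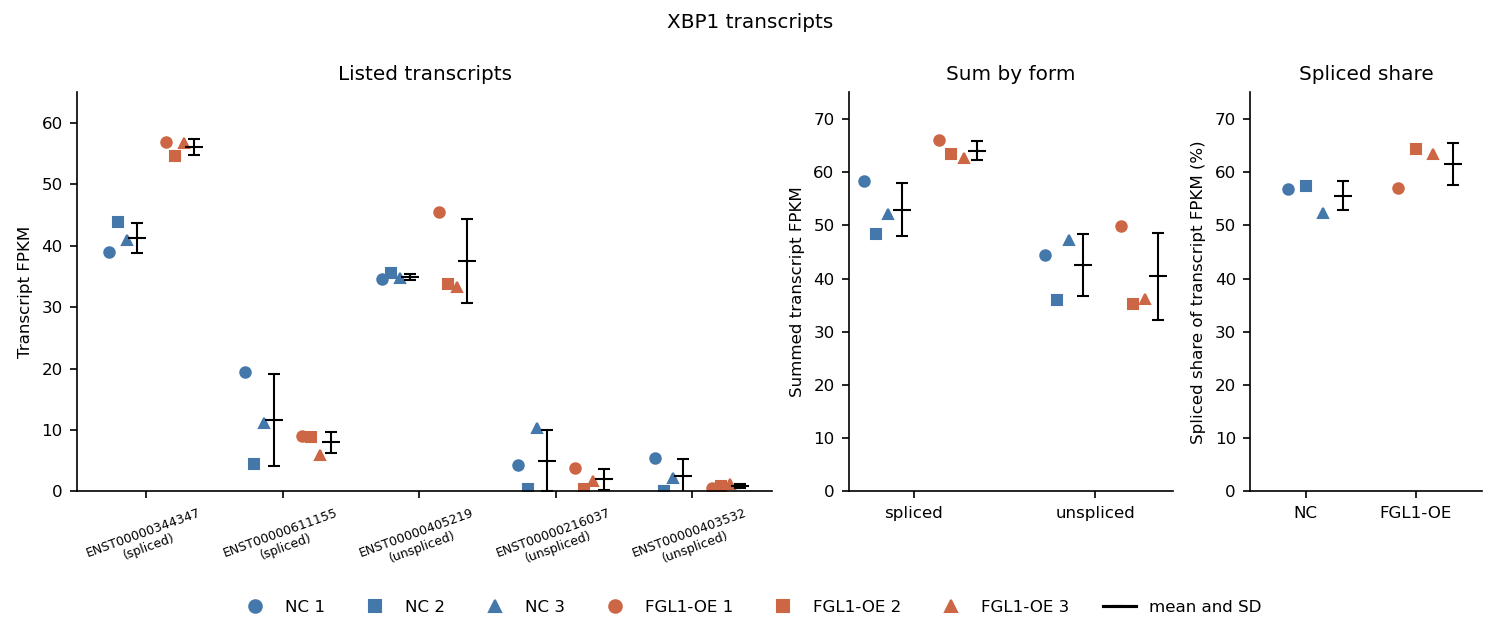
XBP1 in each library: FPKM of the 5 listed transcripts (left), summed FPKM of the spliced and unspliced transcripts (middle) and the spliced share in percent (right), with NC in blue, FGL1-OE in orange and bars for mean and SD. The spliced sum is 48.4 to 58.3 in NC and 62.7 to 66.0 in FGL1-OE, while the unspliced sums overlap and FGL1-OE 1 has a spliced share of 57.0%, within the NC range.

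Among the genes that act downstream in the stress response, TRIB3 (chr20:343479-378203), a pseudokinase that restrains ATF4 and CHOP activity and AKT signalling, was at 27.1, 11.8 and 11.6 FPKM in NC and at 20.7, 18.3 and 18.3 FPKM in FGL1-OE. NC 1 was above, and NC 2 and NC 3 below, every FGL1-OE library. The log2 fold change was 0.28 (SE 0.31, 95% interval -0.44 to 1.00). It was 0.092 without NC 2 and 0.079 without NC 3 (unadjusted p = 0.774 and 0.824, limma). Without NC 1 it was 0.66 (SE 0.14, limma, unadjusted p = 0.00238, adjusted p = 0.999), and TRIB3 was then the 1 stress gene of 10 with an unadjusted p under 0.05, beside 2.75% of all genes in that fit.

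DDIT4 (chr10:74033678-74035794), an inhibitor of mTORC1 that also responds to hypoxia, was at 103, 56.4 and 77.3 FPKM in NC and at 67.7, 59.6 and 56.7 FPKM in FGL1-OE. NC 2 lay just below the lowest FGL1-OE library and the other NC libraries above the highest. The log2 fold change was -0.32 (SE 0.23, 95% interval -0.85 to 0.21, unadjusted p = 0.203), the lowest of the 10 genes. Without NC 1 it was -0.11 (unadjusted p = 0.573, limma). Without NC 2 it was -0.54 (SE 0.17, limma, unadjusted p = 0.0145, adjusted p = 0.195). In that fit 2 of the 10 genes, DDIT4 and HERPUD1, had an unadjusted p under 0.05, beside 21.8% of all genes.

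SESN2 (chr1:28586038-28609002), a sestrin that restrains mTORC1 when leucine is scarce, was at 12.1, 7.45 and 10.6 FPKM in NC and at 10.7, 9.32 and 8.20 FPKM in FGL1-OE, with a log2 fold change at -0.070 (SE 0.20, 95% interval -0.54 to 0.40). CHAC1 (chr15:41245160-41248717), which breaks down glutathione, was at 4.54, 4.55 and 5.05 FPKM in NC and at 5.72, 3.36 and 3.27 FPKM in FGL1-OE. It was the one stress gene with the wider spread in FGL1-OE, while 84.1% of all genes tested were spread more widely in NC. For CHAC1, FGL1-OE 1 was the highest and FGL1-OE 2 and FGL1-OE 3 the lowest of the 6 libraries. The log2 fold change of CHAC1 was -0.19 (SE 0.21, 95% interval -0.67 to 0.29). It was -0.40 without FGL1-OE 1, -0.091 without FGL1-OE 2 and -0.076 without FGL1-OE 3. The leading CHAC1 transcript by listed FPKM differed between libraries of one group. ENST00000617961 was at 5.81, 0.0396 and 5.82 FPKM in NC and at 6.88, 0.0593 and 0.0503 FPKM in FGL1-OE. In the 3 libraries where it was low, ENST00000617768 was at 1.39 to 3.68 FPKM, against 0.00572 or less in the others. ENST00000446533 was at 0.287, 1.75 and 0.741 FPKM in NC and at 0.709, 2.49 and 2.29 FPKM in FGL1-OE. It led in FGL1-OE 2 and FGL1-OE 3, and ENST00000617768 led in NC 2.

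The amino acid synthesis enzymes ASNS (chr7:97481430-97501854), which makes asparagine, and PSAT1 (chr9:80912059-80945009), which acts in serine synthesis, moved together across libraries. ASNS was at 11.9, 27.1 and 22.2 FPKM in NC and at 20.1, 22.8 and 20.5 FPKM in FGL1-OE, with a log2 fold change at 0.12 (SE 0.28, 95% interval -0.54 to 0.78). PSAT1 was at 56.9, 112 and 82.7 FPKM in NC and at 80.6, 91.7 and 81.5 FPKM in FGL1-OE, with a log2 fold change at 0.061 (SE 0.25, 95% interval -0.51 to 0.64). For both, NC 1 was the lowest and NC 2 the highest of all libraries, and the FGL1-OE libraries lay inside that range. The ASNS transcript ENST00000448127 was at 0.200, 1.57 and 14.2 FPKM in NC and at 13.0, 7.85 and 11.6 FPKM in FGL1-OE. NC 3 was the highest of all libraries for it, and its log2 fold change of 1.69 (SE 0.90) depended on the control library. It was 0.89 without NC 1 (limma, unadjusted p = 0.315) and 2.72 without NC 3 (limma, unadjusted p = 0.0016, adjusted p = 0.431).

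HERPUD1 (chr16:56965960-56978775), a membrane protein of the endoplasmic reticulum that takes part in the removal of misfolded proteins, was at 4.10, 5.83 and 5.57 FPKM in NC and at 6.22, 7.45 and 6.28 FPKM in FGL1-OE. Every FGL1-OE library was above every NC library, with a log2 fold change of 0.32 (SE 0.17, 95% interval -0.081 to 0.72, unadjusted p = 0.102, adjusted p = 1.00, limma) and an exact permutation p of 0.1. Without NC 1 the log2 fold change was 0.19. The summed FPKM of its 5 listed transcripts went the opposite way. The sums were 5.09, 5.87 and 5.07 FPKM in NC and 4.13, 3.28 and 3.27 FPKM in FGL1-OE, again without overlap, a log2 fold change of -0.48 (95% interval -0.90 to -0.058, unadjusted p = 0.0308, adjusted p = 1.00, limma). Among genes taken as sums of their listed transcripts it was the 1 stress gene of 10 with an unadjusted p under 0.05, beside 2.77% of all genes. The ratio of the gene value to the sum was 0.804 to 1.10 in NC and 1.51 to 2.27 in FGL1-OE. Of 11762 genes with both values, 1 was higher as a gene and lower as a sum with no overlap in either, and it was HERPUD1, while 0 showed the converse. The ratio alone was higher in all FGL1-OE libraries for 4.31% of genes.

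The most abundant HERPUD1 transcript, ENST00000439977, was at 2.40, 2.29 and 2.35 FPKM in NC and at 1.72, 1.35 and 1.88 FPKM in FGL1-OE, with a log2 fold change at -0.34 (SE 0.22). ENST00000300302 was at 1.01, 1.13 and 1.05 FPKM in NC and at 1.06, 0.640 and 0.851 FPKM in FGL1-OE. ENST00000379792 was at 0.810, 0.662 and 0.953 FPKM in NC against 0.747 and 0.699 FPKM in the first 2 FGL1-OE libraries, and it was listed at 0 in FGL1-OE 3. GENCODE v29 annotates 19 HERPUD1 transcripts, of which 9 are protein coding and 5 were listed, and the other transcripts were not analysed here. A direction for HERPUD1 thus depended on which of the deposited values was taken.

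**Figure D3:**
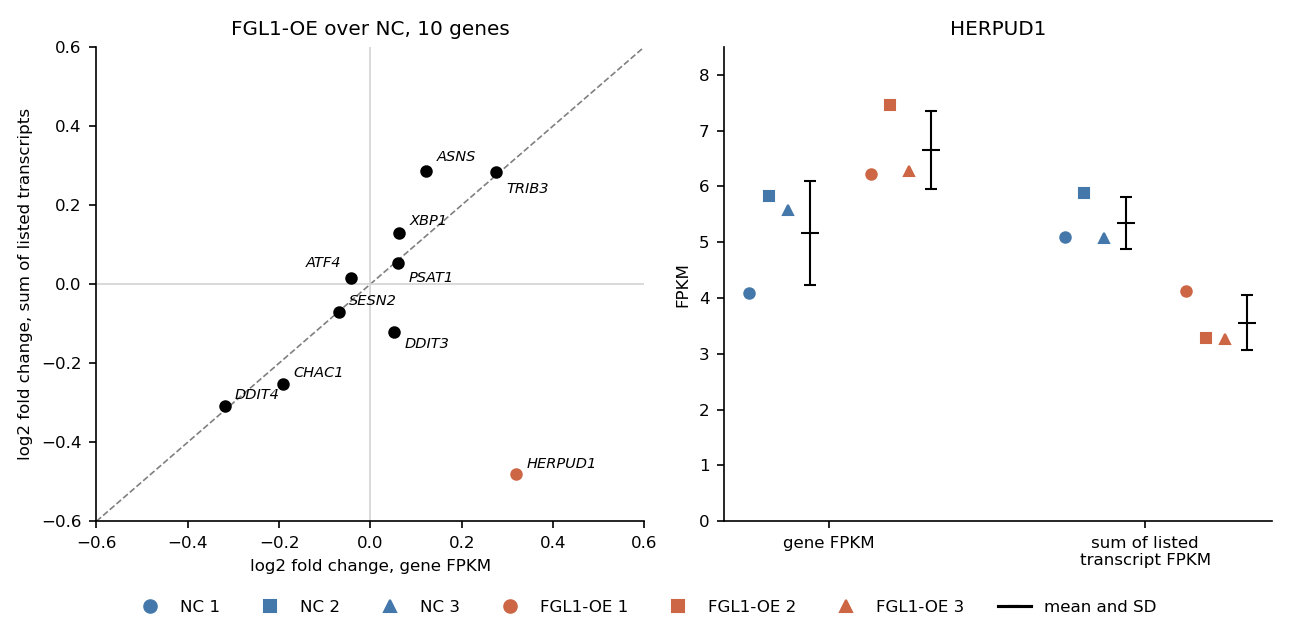
Left, log2 fold change of FGL1-OE over NC on the log2(FPKM + 1) scale from the gene FPKM (horizontal) and from the sum of the listed transcripts (vertical) for the 10 genes, with the dashed line at equality. Right, HERPUD1 FPKM per library from both values, with NC in blue, FGL1-OE in orange and bars for mean and SD. HERPUD1 lies at 0.32 and -0.48, and its groups do not overlap in either value.

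The order of mean FPKM over the 6 libraries was ATF4, PSAT1, DDIT4, XBP1, DDIT3, ASNS, TRIB3, SESN2, HERPUD1 and CHAC1, from 216 to 4.42 FPKM. Between neighbours in this order the ranges over libraries were separate for ATF4 and PSAT1 and for DDIT4 and XBP1, and they overlapped for the other 7 pairs. CHAC1, the lowest, stood at percentile 41.8 of all genes tested.

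**Figure D4:**
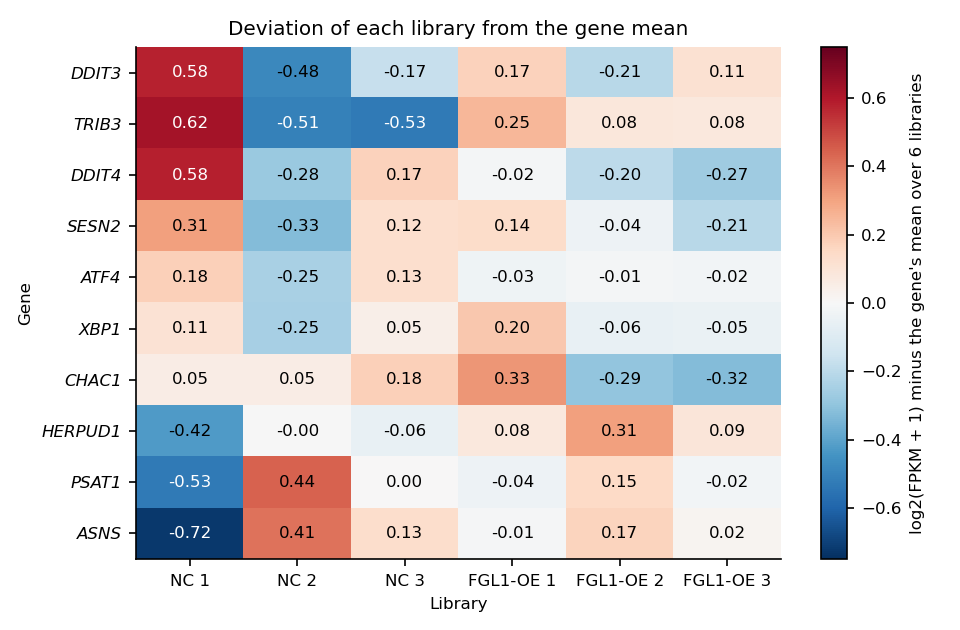
Deviation of each library (columns) from the mean of each gene (rows) on the log2(FPKM + 1) scale, red for above and blue for below, with the value in each cell. NC 1 and NC 2 have opposite signs in DDIT3, TRIB3, DDIT4, SESN2, ATF4 and XBP1 (NC 1 high) and in PSAT1 and ASNS (NC 1 low).

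The controls themselves split the stress genes. The ratio of NC 1 to NC 2 was 2.29 for TRIB3, 2.14 for DDIT3, 1.82 for DDIT4, 1.63 for SESN2, 1.35 for ATF4 and 1.29 for XBP1. It was 0.438 for ASNS, 0.506 for PSAT1 and 0.703 for HERPUD1, and 0.998 for CHAC1. DDIT3 and TRIB3 on one side and the enzymes ASNS and PSAT1 on the other, all known as targets of ATF4, therefore differed in opposite directions between the same pair of control libraries. Of the 10 genes, 5 had their highest value in NC 1 and 3 their lowest, where 29.4% and 41.3% of all genes had theirs. Over the 6 libraries, Pearson's r of log2(FPKM + 1) was 0.97 between ASNS and PSAT1 (Spearman's rho 1.00), -0.95 between DDIT3 and ASNS and -0.96 between DDIT3 and PSAT1 (rho of -1 for both). These values are a description of 6 libraries from 2 groups, and NC 1 and NC 2 held the extreme values of all of these genes. The labels and tables name no batch that would separate these libraries.

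For 6 of the 10 genes the sign differed between the fits without NC 1 and without NC 2. The share of all genes with such a turn is not reported here, so nothing particular to the stress genes is read from this count. Without NC 1 the log2 fold changes of ASNS and PSAT1 were -0.21 and -0.19, and without NC 2 they were 0.36 and 0.30. DDIT3 was at 0.35 without NC 1 and at -0.18 without NC 2. ATF4 was at 0.038 and -0.17, SESN2 at 0.067 and -0.25 and XBP1 at 0.13 and -0.047 in the same fits. Leaving out an FGL1-OE library also turned the sign of some of these genes. DDIT3 was at -0.021 and XBP1 at -0.022 without FGL1-OE 1, and SESN2 was at 0.016 without FGL1-OE 3. TRIB3 and the HERPUD1 gene value stayed above 0, and DDIT4 and CHAC1 below 0, in all 6 fits that left out a library.

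**Figure D5:**
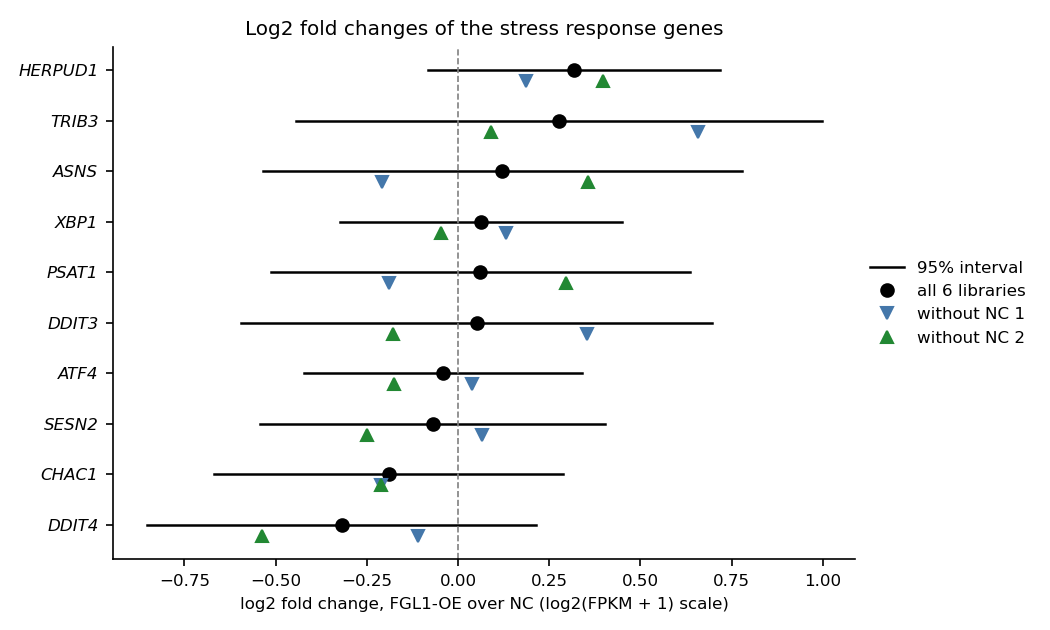
Log2 fold change of FGL1-OE over NC (horizontal axis, log2(FPKM + 1) scale) of each gene with all 6 libraries (black circles, lines for the 95% interval), without NC 1 (blue) and without NC 2 (green). All 10 intervals include 0, and for 6 genes the values without NC 1 and without NC 2 lie on opposite sides of 0. The share of all genes for which they do so is not reported here.

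The rest of the pathway was described by 7 lists of genes, and no gene of any list had an adjusted p under 0.05 in limma. The counts of genes without overlap that follow stand beside 4.09% of all genes tested that were higher and 3.06% that were lower, and nothing particular to a list is read from them. Among 21 stress sensors and genes of eIF2 control, the groups did not overlap for 2 genes higher and 1 lower in FGL1-OE (4.09% and 3.06% of all genes), and the median log2 fold change was 0.094. EIF2B1, a subunit of the exchange factor that eIF2 phosphorylation inhibits, was at 26.5, 35.5 and 35.2 FPKM in NC and at 40.5, 40.3 and 40.2 FPKM in FGL1-OE, with a log2 fold change at 0.32 (SE 0.16). KIAA0141, the older symbol of DELE1, which relays mitochondrial stress to eIF2, was at 5.15, 5.46 and 5.62 FPKM in NC and at 6.55, 6.64 and 7.08 FPKM in FGL1-OE, with a log2 fold change at 0.28 (SE 0.14). ATF6B, a relative of ATF6, was lower, with a log2 fold change of -0.16 (SE 0.13).

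Among 31 other ATF4 targets, 2 were higher and 1 was lower without overlap (4.09% and 3.06% of all genes), and the median log2 fold change was -0.013. PSPH, which completes serine synthesis after PSAT1, was at 11.7, 12.8 and 18.0 FPKM in NC and at 20.7, 20.1 and 18.0 FPKM in FGL1-OE, with a log2 fold change at 0.46 (SE 0.19, limma, unadjusted p = 0.0415), and it was the 1 gene of the 7 lists with an unadjusted p under 0.05, beside 2.01% of all genes tested. ALDH18A1, an enzyme of proline synthesis, was at 0.21 (SE 0.14) and NUPR1, a small stress-induced nuclear protein, at -0.22 (SE 0.16). Of 12 aminoacyl-tRNA synthetases under ATF4, 1 was higher without overlap (4.09% of all genes). It was WARS, the enzyme for tryptophan, at 8.46, 15.4 and 15.9 FPKM in NC and at 21.4, 21.8 and 16.2 FPKM in FGL1-OE, with a log2 fold change at 0.58 (SE 0.26, limma, unadjusted p = 0.0541).

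For the 7 listed of 8 CHOP targets, the groups overlapped in every case and the median log2 fold change was -0.077. Of the 29 listed of 30 XBP1 and ATF6 targets, 1 was higher without overlap (4.09% of all genes), and the median log2 fold change was -8.3e-05. It was PDIA6, a protein disulfide isomerase of the endoplasmic reticulum, at 187, 192 and 199 FPKM in NC and at 206, 210 and 214 FPKM in FGL1-OE, with a log2 fold change at 0.12 (SE 0.13).

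Because DDIT4 also responds to hypoxia and SESN2 to p53, genes of both responses were set beside them. The 11 listed of 12 hypoxia targets had a median log2 fold change of -0.091, with 2 lower without overlap (3.06% of all genes). CA9, a carbonic anhydrase, was at 3.67, 1.23 and 1.61 FPKM in NC and at 0.944, 1.14 and 1.11 FPKM in FGL1-OE. NC 1 held the highest CA9 value, as it did for 29.4% of all genes. The CA9 log2 fold change stood at -0.54 (SE 0.27). NDRG1 was at -0.14 (SE 0.14). By the study's account TE-1 cells carry mutant p53, and p53 activity was not tested here. The 12 p53 targets had a median of 0.060, with 1 higher without overlap (4.09% of all genes). It was FAS, a death receptor, at 0.37 (SE 0.19).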

How the data were processed

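Gene and transcript FPKM of 3 NC and 3 FGL1-OE libraries of TE-1 cells were analysed. The authors deposited the FPKM values of protein-coding features, and StringTie and GRCh37 are credited to the submitters' processing notes; the aligner is not given in the sources used here. Columns that hold the authors' own comparison (means, fold changes, p-values) were not used. Labels set the groups, by genotype.

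All 12017 genes and 30330 transcripts whose mean over the libraries reached 0.5 FPKM entered limma (version 3.58.1, R 4.3.3). The fit used log2(FPKM + 1), where 1 is the pseudocount, had group as its only term, and p-values were adjusted over the whole table by Benjamini-Hochberg. This scale understates changes of low genes. Exact permutation tests, two-sided, were run on single values and cannot go below a p of 0.1. The fit was tested on simulated data. No depth or counting interval can be given without counts.

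Named features were the 10 genes, FGL1, their transcripts with at least 10% of the summed FPKM or without overlap, and up to 2 genes without overlap in each direction of each list. The 5 genes most alike to the mean of ASNS, PSAT1, TRIB3, CHAC1 and SESN2 were named too. Not all named features are reported here. The stress genes and lists were chosen with earlier results of these data known. XBP1 sequences came from GENCODE v29 (GRCh38), and promoters from RefSeq. Alternatives were removal of the filter, a stricter filter at 1 FPKM, 0.1 as pseudocount, a common sum, quantile normalization, a replicate block, a robust variance trend, sums of transcripts and leaving out each library; weighting the XBP1 share by transcript length was chosen after seeing the data.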

Additional observations from a re-analysis of the deposited data

How the results depend on the processing

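The number of stress genes with an adjusted p under 0.05 was 0 in all 14 alternatives, and that of their transcripts 0 in all 13. With an unadjusted p under 0.05 the number of genes ranged from 0 to 2 when each library was left out, 2 without NC 2 and 1 without NC 1, and was 1 with sums of transcripts. The share of all genes with such a p was 21.8% without NC 2, 2.75% without NC 1 and 2.77% with sums of transcripts. The number of transcripts also ranged from 0 to 2 when each library was left out, with 2 without NC 2 and 1 without NC 1 and without NC 3. It was 1 with the robust variance trend (ENST00000344347 of XBP1). The shares of all transcripts in those fits are not reported here, so nothing is read from the transcript counts. With sums of transcripts the sign turned for ATF4 (0.016), DDIT3 (-0.12) and HERPUD1 (-0.48), and with a pseudocount of 0.1 for ATF4 transcript ENST00000404241 (-0.26). The cause was not tested.

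When each library was left out, the lowest and highest log2 fold changes were -0.17 and 0.038 for ATF4, -0.18 and 0.35 for DDIT3, -0.047 and 0.13 for XBP1, -0.21 and 0.36 for ASNS, -0.25 and 0.067 for SESN2 and its transcript, and -0.19 and 0.30 for PSAT1. For transcripts they were -0.60 and 0.48 (ENST00000396680) and -0.83 and 2.19 (ENST00000404241) of ATF4, -0.23 and 0.38 (ENST00000346473) of DDIT3, -0.058 and 0.16 (ENST00000405219) and -0.83 and 0.11 (ENST00000611155) of XBP1, -0.55 and 0.69 (ENST00000394308), -0.096 and 1.06 (ENST00000444334) and -0.83 and 0.16 (ENST00000455086) of ASNS, -0.25 and 0.86 (ENST00000617768) of CHAC1 and -0.21 and 0.33 (ENST00000376588) of PSAT1. TRIB3 (0.079 and 0.66), CHAC1 (-0.40 and -0.076) and DDIT4 (-0.54 and -0.11) kept their sign in all 14 alternatives, and the HERPUD1 gene value (0.19 and 0.40) in all but sums of transcripts. The XBP1 spliced share differed by 4.48 to 8.33 percentage points when each library was left out and by 5.31 with weighting by length. The median over the stress genes ranged from -0.11 to 0.052 when each library was left out, and FGL1 from 5.16 to 5.29, while FGL1 was at 8.12 with a pseudocount of 0.1 and at 6.49 with sums of transcripts.

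With the replicate block, FGL1 was at 5.21, the median over the stress genes at 0.056 and the number called at 0, and no call changed. Deviations from the group means correlated at 0.345, 0.282 and -0.061 between libraries of the same number. NC 1 and NC 2 were each closest to the FGL1-OE library of their own number, and NC 3 was closest to FGL1-OE 1 (0.111). Within a group of 3 libraries the deviations sum to 0, so a pairing by number cannot be decided from these values.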

Other observations

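Genes whose log2(FPKM + 1) over the 6 libraries was among the most alike to the mean of the standardised values of ASNS, PSAT1, TRIB3, CHAC1 and SESN2 were MARCH3 (Pearson's r 0.970), S100A5 (0.970), EIF4EBP1 (0.960) and GCSH (0.955). That mean was highest in FGL1-OE 1, at 0.457, and lowest in FGL1-OE 3, at -0.387, which are libraries of one group. Its members opposed each other, with Pearson's r of -0.83 between TRIB3 and ASNS and -0.84 between SESN2 and PSAT1. By contrast, r was 0.97 between ASNS and PSAT1 and 0.58 between TRIB3 and SESN2. The mean therefore does not stand for the ATF4 targets as a set, nor do the genes most alike to it. EIF4EBP1, a repressor of translation initiation, was at 61.1, 62.9 and 68.3 FPKM in NC and at 73.5, 63.7 and 58.0 FPKM in FGL1-OE. GCSH, of the glycine cleavage system, was at 10.3, 12.1 and 11.7 FPKM in NC and at 13.4, 11.0 and 9.90 FPKM in FGL1-OE. Among 12017 genes and 6 libraries, high values of r arise readily, and the r are given as a description.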
